A study of Mus musculus with 10 samples.

Results

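Chemokine, cytokine and NF-kappaB genes were followed in cultured mouse lymphatic endothelium, the inner lining of lymph vessels, after knockdown of Vegfr2. The members were taken by symbol: CC and CXC chemokines and their receptors, the CX3C chemokine Cx3cl1, 3 atypical chemokine receptors, the interleukin genes Il1a, Il6 and Il33, Lif, 3 colony-stimulating factors, 5 NF-kappaB subunits and 5 of their inhibitors. The symbols matched 58 of the 16251 genes with a row, and Il1b, which the same rule names, is not analysed here. The rule does not take every CXC chemokine, and it takes no CX3C receptor, so rankings of chemokines below hold among the members only. Primary cells of 5 samples (Vegfr2 siRNA) had received 50 nM of a small interfering RNA that targets Vegfr2, a receptor for VEGF whose gene is named Kdr. The other 5 samples were labelled control, and RNA of both groups was taken at 48 h. All 10 samples are tagged as siRNA knockdown, controls included, but no control siRNA is named, and the labels do not say whether replicates were separate cultures. What the p-values measure is thus only how these samples vary, and that variation may be technical. The study's title speaks of a shift from lymphatic to hematopoietic programs with too little VEGFR2.

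Chemokines are small secreted proteins that guide migrating cells through G protein-coupled receptors, and lymphatic endothelium uses them, Ccl21 above all, to draw dendritic cells and T cells into the vessel. Atypical receptors bind chemokines without the usual signalling, and several of them clear chemokines from the surroundings. NF-kappaB is a family of dimeric transcription factors held in the cytoplasm by IkappaB proteins, and it drives many chemokine, cytokine and adhesion genes in activated endothelium.

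The libraries held 17946483 to 18239260 estimated counts. Kdr stood at 185.5 ± 14.8 CPM (counts per 1000000, on library sizes scaled by TMM) in siRNA cells and 1323 ± 66.3 CPM in control cells (SD, n = 5 each), a log2 fold change of −2.83 (two-sided exact permutation p = 0.00794, the smallest these 10 libraries can give). Lymphatic markers were present in every library, with summed levels of 11500 to 12500 CPM over 7 genes in siRNA and 17200 to 18900 CPM in control libraries. Of 15 leukocyte markers 9 had a row. Their summed level was 8.28 to 10.2 CPM in siRNA and 11.3 to 13.3 CPM in control libraries, most of it Fcer1g, and Itgam, Spi1, Csf1r, Cd79a, S100a8 and Cx3cr1 had at most 6 counts over a whole group. Summed levels in siRNA and in control libraries were 3.47 to 4.61 and 3.19 to 4.71 CPM for fibroblast markers, 10.2 to 12.5 and 9.73 to 14.0 CPM for mural cell markers, and at most 0.110 and 0.112 CPM for epithelial markers. Single markers within these sums moved apart: Acta2 rose (log2 fold change 0.62, edgeR adjusted p = 7.50e-06), Pdgfrb fell (−0.41, adjusted p = 0.00183), and Pdgfra, too low to test, had 45 counts over the siRNA and 5 over the control libraries. In bulk RNA, fewer cells of a type and less RNA per cell cannot be told apart.

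Of the 58 members 31 had enough counts to be tested, at a minimum of about 0.552 CPM in at least 5 libraries, and each of these had libraries of both groups above that minimum. Of the 31, 10 rose after the siRNA, 9 fell and 12 did not pass (edgeR quasi-likelihood test, Benjamini-Hochberg adjusted p under 0.05). That is 61.3% of the tested members, where 71.3% of all 12161 tested genes passed, 36.1% upward and 35.2% downward. The median log2 fold change was 0.04 over the members and −0.002 over all tested genes. At least 2-fold changes that passed were seen in 6 members (19.4%), against 4.61% of all tested genes, 4 of them upward and 2 downward. Of these members Ccl7, Csf3, Ccl21a and Cxcl17 averaged under 5 CPM in both groups, and the shares were not compared at like levels. Libraries of the groups did not overlap for 13 members (41.9%), against 57.0% of all tested genes. The changed members thus went both ways, with the 4 large rises in a chemokine receptor, a neighbouring pair of CC chemokines and a granulocyte factor, and the 2 large falls in the chemokines Ccl21a and Cxcl17.

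**Figure D1:**
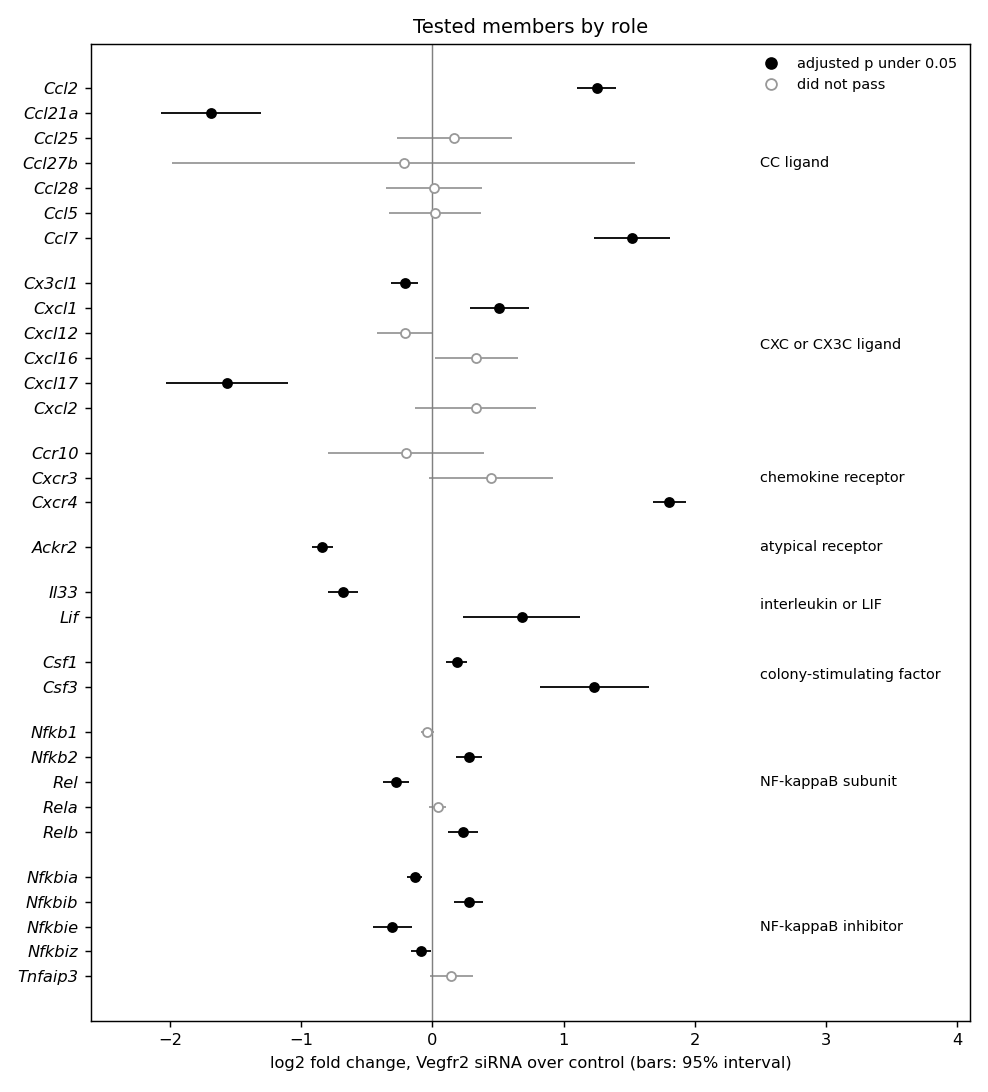
Log2 fold changes of the 31 tested members, Vegfr2 siRNA over control, ordered by role. Bars are 95% intervals from the edgeR fit, filled points passed an adjusted p of 0.05 and open points did not. Cxcr4 (1.80) lies farthest right and Ccl21a (−1.69) farthest left.

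Cxcr4 had the largest rise of the members. Cxcr4 (Entrez gene 12767, GRCm38.p6 chromosome 1, 128588199 to 128592299) encodes the signalling receptor for Cxcl12, a chemokine pair known for endothelial tip cells and for the homing of blood stem cells. It stood at 32.03, 29.7, 32.6, 30.2 and 33.5 CPM in the siRNA libraries, in the order of their labels, and at 7.72, 8.67, 10.8, 9.77 and 8.19 CPM in the control libraries. The lowest siRNA library was well above the highest control library. The log2 fold change was 1.80, with an SE of 0.064 and an adjusted p of 1.35e-25, or 3.49-fold. Leukocytes express Cxcr4 as well. Of the 9 leukocyte markers with a row 2 could be tested, and these, Laptm5 and Fcer1g, fell by 0.95 and 0.34 on the log2 scale. The part of leukocytes in the Cxcr4 values was not tested.

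Of the other genes of that axis, the ligand did not pass and the second receptor rose. Cxcl12 averaged 3.89 ± 0.423 CPM in siRNA and 4.499 ± 0.302 CPM in control libraries (SD, n = 5 each), which did not pass (log2 fold change −0.21, adjusted p = 0.0749), although without siRNA replicate 2 it did (adjusted p = 0.0297). Ackr3, an atypical receptor that takes up Cxcl12 and is not a member by the rule, rose to 203 ± 4.49 CPM in siRNA cells, against 140.4 ± 3.52 CPM in control cells (log2 fold change 0.53, adjusted p = 4.96e-22). The other 2 tested receptors, Cxcr3 and Ccr10, lay at 0.988 and 0.483 CPM in siRNA and at 0.725 and 0.556 CPM in control cells and did not pass (adjusted p = 0.0957 and 0.561).

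The neighbouring genes Ccl2 and Ccl7 both rose. They encode monocyte-attracting CC chemokines that signal through Ccr2, and lie on chromosome 11 at 82035577 to 82037452 (Ccl2, Entrez gene 20296) and 82045712 to 82047525 (Ccl7, Entrez gene 20306). Ccl2 stood at 210.2, 189.7, 194.9, 227.5 and 229.6 CPM in the siRNA libraries and at 90.2, 80.7, 94.2, 94.97 and 81.3 CPM in the control libraries. These groups were far apart, and Ccl2 was the most abundant chemokine among the members in both. The log2 fold change was 1.25, with an SE of 0.075 and an adjusted p of 3.25e-07. Ccl7 stood at 4.27, 3.89, 3.46, 5.21 and 4.62 CPM in the siRNA libraries and at 1.34, 1.11, 1.61, 1.88 and 1.51 CPM in the control libraries, which is 2.87-fold (log2 fold change 1.52, SE 0.147, adjusted p = 2.24e-12). Its groups did not overlap either, at a level far under that of Ccl2. Ccr2 had 0 counts over the siRNA libraries and 1 over the control libraries.

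The scavenger of inflammatory CC chemokines moved the other way. Ackr2 (Entrez gene 59289, chromosome 9, 121898355 to 121911075), an atypical receptor of lymphatic endothelium that binds and degrades Ccl2 and Ccl7 among others, stood at 34.8, 32.4, 31.4, 32.5 and 30.0 CPM in the siRNA libraries and at 56.0, 57.4, 56.4, 57.4 and 61.2 CPM in the control libraries. Every siRNA library was lower than every control library, and the level fell to 55.9% of control (log2 fold change −0.84, SE 0.040, adjusted p = 3.14e-22). Of the other atypical receptors among the members, Ackr1 had 1 count over the siRNA and 0 over the control libraries, and Ackr4, which clears Ccl19 and Ccl21, had 1 and 4.

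**Figure D2:**
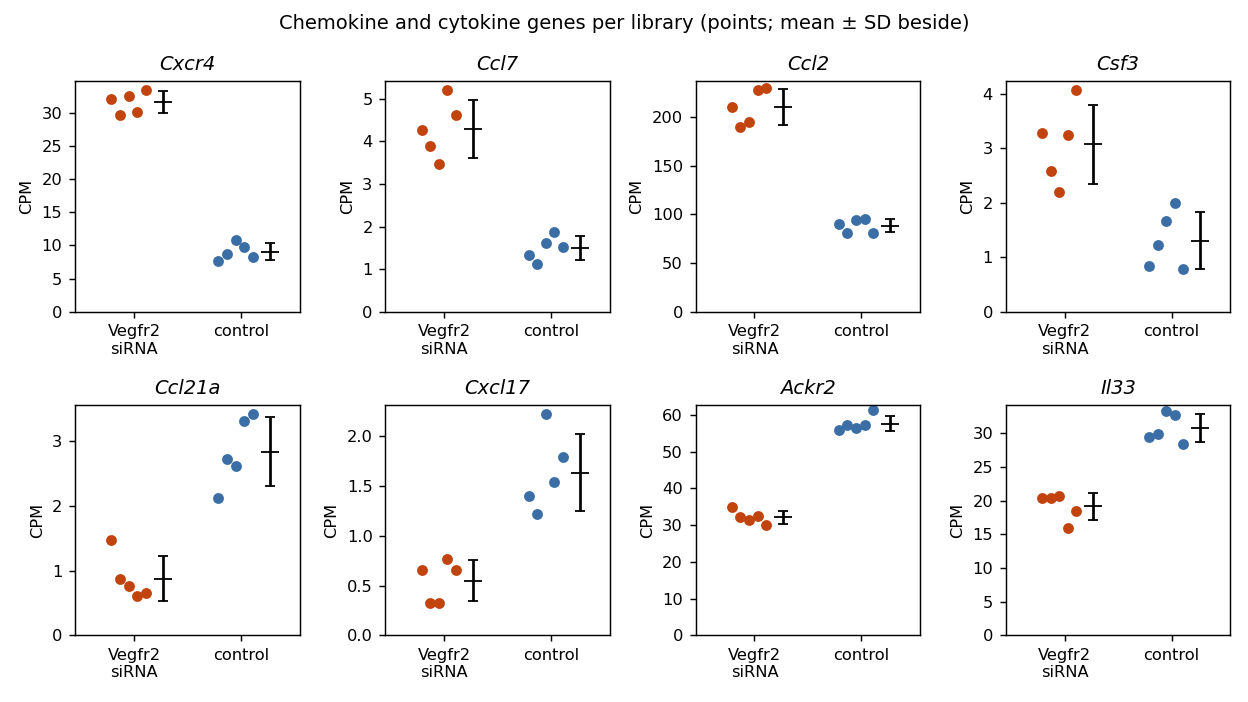
Level of 8 chemokine and cytokine genes in each library, in CPM on axes that start at 0. Points are the 5 Vegfr2 siRNA (left) and 5 control libraries (right) and the bars are mean ± SD. Groups do not overlap for any of the 8, with Cxcr4, Ccl7, Ccl2 and Csf3 higher and Ccl21a, Cxcl17, Ackr2 and Il33 lower in siRNA libraries. The 8 are all from the 13 members whose groups do not overlap (41.9% of those tested, against 57.0% of all tested genes).

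Ccl21a, a gene copy for the chemokine Ccl21, which attracts Ccr7-bearing dendritic cells and T cells, fell. Ccl21a (Entrez gene 18829, chromosome 4, 42772860 to 42773991) stood at 1.48, 0.878, 0.768, 0.603 and 0.660 CPM in the siRNA libraries and at 2.12, 2.72, 2.61, 3.31 and 3.42 CPM in the control libraries. All siRNA libraries were under all control libraries, with siRNA replicate 1 nearest to them. The log2 fold change was −1.69, with an SE of 0.194 and an adjusted p of 4.21e-10. These are low levels, from 11 to 27 counts per siRNA and 38 to 61 per control library. Of the 7 lymphatic markers 6 fell over the same libraries, by 0.24 (Lyve1) to 1.06 (Flt4) on the log2 scale, and Pdpn rose by 0.81. Of 6 general endothelial markers 5 fell as well, by 0.21 (Pecam1) to 0.66 (Tie1), and Cdh5 did not pass. Over all tested genes 35.2% fell. The part of these markers in the Ccl21a result was not tested. Mouse Ccl21 has near-identical copies, and the estimated counts of Ccl21a were fractional in all 10 libraries. Rows for Ccl21c, Gm13304, Gm21541 and Gm10591 held the same values as each other in every library, so reads could not be assigned to a copy, and their single levels are uncertain. Added up over the 5 rows, the copies stood at 1.39 ± 0.311 CPM in siRNA and 4.73 ± 0.791 CPM in control cells (SD, n = 5 each), with edgeR giving −1.77 for the log2 fold change (SE 0.149, adjusted p = 4.38e-14). This sum was chosen after seeing the data. Ccr7, its receptor, had 5 counts over the siRNA and 9 over the control libraries.

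Among the CXC and CX3C chemokines, 1 of 6 tested genes rose and 2 fell (50.0% called, against 71.3% of all tested genes). Cxcl17, a mucosal chemokine (Entrez gene 232983, chromosome 7, 25400053 to 25412886), stood at 0.657, 0.329, 0.329, 0.768 and 0.660 CPM in the siRNA libraries and at 1.40, 1.22, 2.22, 1.55 and 1.79 CPM in the control libraries. The groups were separate, and the log2 fold change was −1.56, with an SE of 0.239 and an adjusted p of 1.87e-07, from 6 to 14 counts per siRNA and 22 to 40 per control library. Cx3cl1, a membrane-bound chemokine of endothelium also called fractalkine, was the most abundant of this group, at 49.9, 44.0, 43.6, 48.2 and 47.0 CPM in the siRNA and 46.9, 54.5, 57.5, 58.4 and 52.3 CPM in the control libraries. Its groups overlapped through control replicate 1 and its fall was small (log2 fold change −0.21, SE 0.052, adjusted p = 0.00118).

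Of the neutrophil-attracting chemokines Cxcl1 and Cxcl2, which share a gene cluster on chromosome 5, Cxcl1 rose to 4.80 ± 0.554 CPM in siRNA cells, against 3.36 ± 0.469 CPM in control cells (SD, n = 5 each; log2 fold change 0.51, adjusted p = 0.000131), and its groups did not overlap. Cxcl2 averaged 0.911 ± 0.137 CPM in siRNA and 0.723 ± 0.154 CPM in control cells (log2 fold change 0.33, 95% interval −0.13 to 0.79, adjusted p = 0.211). Cxcl16, a membrane-bound chemokine, averaged 2.16 ± 0.145 CPM in siRNA and 1.72 ± 0.406 CPM in control cells and did not pass (log2 fold change 0.33, adjusted p = 0.0622). It passed without control replicate 1 or control replicate 3 (adjusted p = 0.0391 and 0.0196), and 18.3% of its exon bases are shared with a gene on the opposite strand.

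The remaining tested CC chemokines did not pass. Ccl5, Ccl25 and Ccl28 lay between 1.32 and 1.46 CPM in siRNA cells and between 1.27 and 1.44 CPM in control cells, with log2 fold changes from 0.02 to 0.17 and adjusted p from 0.513 to 0.946. At 14 to 37 counts per library, their 95% intervals were −0.33 to 0.37 (Ccl5), −0.27 to 0.61 (Ccl25) and −0.35 to 0.38 (Ccl28). Changes inside each gene's interval were not excluded. Ccl27b was at 0 counts in 1 siRNA and 2 control libraries and at up to 15 and 23 counts in the others, which left its fold change undetermined (95% interval −1.98 to 1.54).

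All 4 cytokine genes that could be tested passed, where 71.3% of all tested genes did. Il33, an alarmin kept in the nuclei of endothelial and epithelial cells (Entrez gene 77125, chromosome 19, 29925113 to 29960718), stood at 20.5, 20.4, 20.6, 15.96 and 18.6 CPM in the siRNA libraries and at 29.5, 29.9, 33.4, 32.7 and 28.5 CPM in the control libraries. The groups were separate and Il33 fell to 62.3% of the control level (log2 fold change −0.68, SE 0.059, adjusted p = 9.85e-12). Il33, Ccl2, Cxcl12 and Ccl28 are the 4 of 30 tested members with an annotated 3' UTR that hold the 7-base word GTAAAGA there. Of the other 3, Ccl2 rose (log2 fold change 1.25), and Cxcl12 (−0.21) and Ccl28 (0.02) did not pass. An earlier search of these same data had singled out that word for its tie to lower fold changes. It was present in 12.9% of 11822 tested genes with such a UTR, whose median log2 fold change was −0.13, against 0.015 for the genes without it, and its part in the fall of Il33 was not tested.

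Csf3, granulocyte colony-stimulating factor, rose most among the cytokines. Csf3 (Entrez gene 12985, chromosome 11, 98700183 to 98703631) stood at 3.29, 2.58, 2.19, 3.24 and 4.07 CPM in the siRNA libraries and at 0.839, 1.22, 1.67, 1.99 and 0.785 CPM in the control libraries. The groups did not overlap, with siRNA replicate 3 close to control replicate 4. The log2 fold change was 1.23, with an SE of 0.213 and an adjusted p of 2.04e-05. Csf1, which encodes the macrophage growth factor M-CSF (Entrez gene 12977, chromosome 3, 107741048 to 107760469), was the most abundant cytokine gene, at 62.6, 59.5, 56.5, 67.3 and 64.8 CPM in the siRNA and 55.5, 55.1, 54.2, 57.1 and 51.4 CPM in the control libraries. Its groups overlapped at the edge and its rise was small (log2 fold change 0.18, SE 0.040, adjusted p = 8.57e-05). Lif, a cytokine of the Il6 family, rose to 1.08 ± 0.163 CPM in siRNA cells, against 0.668 ± 0.0973 CPM in control cells (SD, n = 5 each; log2 fold change 0.68, adjusted p = 0.00748). Il6 had 27 counts over the siRNA and 12 over the control libraries and was not tested. Without a filter its adjusted p was 0.0544.

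Receptors for these cytokines were partly missing from the cells. The signalling receptors of Il33, Csf1 and Csf3, named after their values were seen, had almost no reads: Il1rl1 had 7 counts over the siRNA and 5 over the control libraries, Csf1r had 0 and 6, and Csf3r had 2 and 3. Of 15 receptor and decoy genes written down, 13 had a row and 9 were tested, of which 4 rose, 4 fell and 1 did not pass. That is 88.9% called, against 71.3% of all tested genes, and the median log2 fold change was −0.04. With Ackr3, the 4 smallest adjusted p belonged to Il6st, Osmr and Il1r1. Il6st, the shared signal-transducing chain of the Il6 family, fell to 123.9 ± 2.84 CPM in siRNA cells, against 156.3 ± 6.14 CPM in control cells (log2 fold change −0.33, adjusted p = 3.28e-14). Osmr, the oncostatin M receptor chain, fell by 0.56 on the log2 scale (adjusted p = 1.06e-13). Il1r1, the signalling receptor for Il1, rose to 22.1 ± 1.34 CPM in siRNA cells, against 14.8 ± 1.13 CPM in control cells (log2 fold change 0.57, adjusted p = 8.70e-12).

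All 10 NF-kappaB genes were tested, and 3 rose, 4 fell and 3 did not pass, none by as much as 2-fold. The share called, 70.0%, was near the 71.3% of all tested genes. Among the subunits, Nfkb2 and Relb, which pair in the noncanonical pathway, rose by 0.28 and 0.23 on the log2 scale (adjusted p = 2.80e-05 and 0.00107). Rel, which encodes c-Rel, fell by 0.28 (adjusted p = 5.04e-06). Nfkb2 averaged 52.8 ± 3.82 CPM in siRNA and 43.5 ± 3.15 CPM in control cells, and Relb 32.4 ± 3.26 CPM in siRNA and 27.6 ± 1.80 CPM in control cells. Rel averaged 21.5 ± 1.25 CPM in siRNA and 26.0 ± 1.26 CPM in control cells (SD, n = 5 each). Groups were separate for Nfkb2 and Rel and overlapped for Relb. Exon bases of Nfkb2 (18.1%) and Nfkbib (16.4%) also belong to genes transcribed in the other direction, so without a known strand setting some of their reads may come from those genes.

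The subunits of the canonical dimer did not pass. Nfkb1, which encodes p105 and p50, stood at 197, 194, 192, 191 and 196 CPM in the siRNA libraries and at 195, 203, 196, 195 and 206 CPM in the control libraries (log2 fold change −0.04, 95% interval −0.09 to 0.01, adjusted p = 0.174). Its groups overlapped and any difference was small, although with upper-quartile scaling it passed at −0.054 (adjusted p = 0.0484). Rela, which encodes p65, averaged 96.9 ± 3.53 CPM in siRNA and 94.2 ± 4.21 CPM in control cells (log2 fold change 0.04, 95% interval −0.02 to 0.10, adjusted p = 0.254).

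Among the inhibitors, 3 of 5 fell, Nfkbiz only narrowly, and 1 rose, where 35.2% of all tested genes fell and 36.1% rose. Nfkbia, which encodes IkappaB alpha, the classical inhibitor that NF-kappaB itself induces, stood at 125.7, 115.4, 120.5, 115.3 and 114.6 CPM in the siRNA libraries and at 125.6, 130.4, 134.9, 127.8 and 130.8 CPM in the control libraries. Only siRNA replicate 1 reached the control range, and the fall was small (log2 fold change −0.14, SE 0.029, adjusted p = 6.65e-05). Nfkbie, which encodes IkappaB epsilon, fell by 0.30 (adjusted p = 0.000396) and Nfkbib, which encodes IkappaB beta, rose by 0.28 (adjusted p = 4.01e-05). Nfkbiz, which encodes a nuclear IkappaB protein, passed narrowly (log2 fold change −0.09, adjusted p = 0.0434), and its call was lost with DESeq2 and without any of 8 single libraries. Those were siRNA replicates 1, 2, 3 and 5 and control replicates 1, 3, 4 and 5, with adjusted p from 0.0641 to 0.171 without them. Tnfaip3, which encodes the deubiquitinase A20, a feedback inhibitor, averaged 9.94 ± 0.976 CPM in siRNA and 8.996 ± 1.21 CPM in control cells and did not pass (log2 fold change 0.14, adjusted p = 0.123), but did without siRNA replicate 5 or control replicate 2 (adjusted p = 0.0390 and 0.0206).

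**Figure D3:**
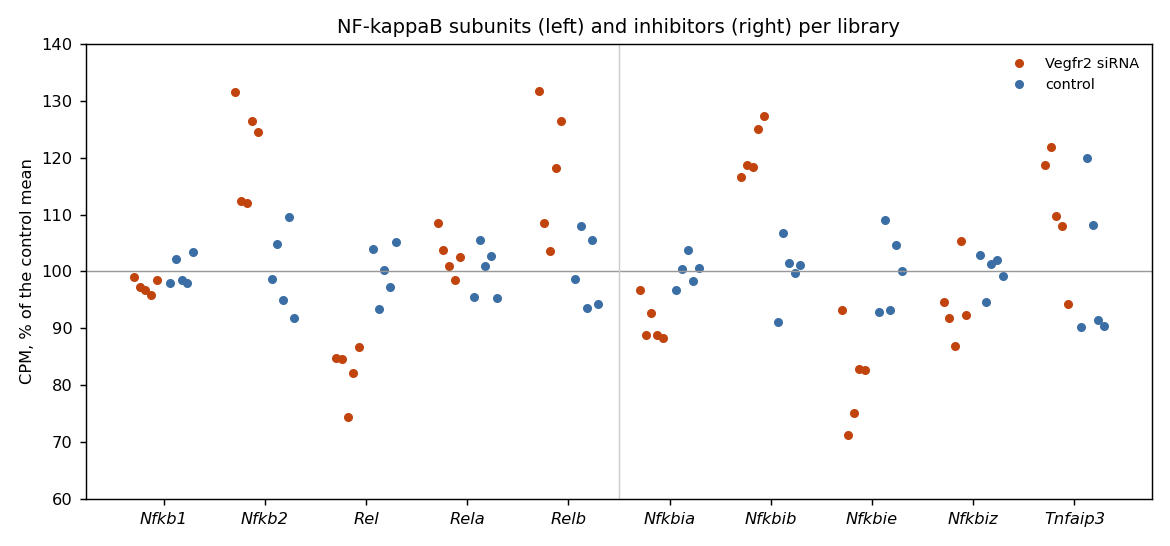
NF-kappaB subunits and inhibitors in each library, as percent of the mean of the control libraries. For each gene the 5 Vegfr2 siRNA libraries are left and the 5 control libraries right. Nfkb2, Relb and Nfkbib lie higher and Rel, Nfkbia and Nfkbie lower on average in siRNA libraries. Groups are separate for Nfkb2, Rel and Nfkbib and overlap for the other 7 genes, where 57.0% of all tested genes have separate groups.

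Promoter sequences are shown to set these directions beside the sites NF-kappaB is known to bind. RefSeq windows (GRCm38.p6, 250 bases before to 50 after a start site) were given for 21 of the 31 tested members, and Cxcr4 is shown as the largest rise with a window. None was given for Ccl2, Ccl7, Csf3 or Cxcl17, so the counts below do not cover these large changes. The kappaB consensus, searched by its standard 10-base degenerate form, which reads the same on both strands, was found in a window of 10 of these 21 members, and in 12.6% of all 27025 genes with a window. These sets are not alike. The members were picked by name as NF-kappaB, chemokine and cytokine genes, and the 27025 include genes that were not tested. The matches went with both directions: 4 of the 6 members with a window that rose held it (Cxcl1, Lif, Csf1 and Nfkb2), as did 4 of the 7 that fell (Ackr2, Rel, Nfkbia and Nfkbie) and 2 of the 8 that did not pass (Cxcl2 and Tnfaip3). The windows of Cxcr4, Il33 and Ccl21a held none, which says only that these letters are not there. The AP-1 word TGANTCA, also the same on both strands and not overlapping the kappaB matches, was found in 6 of the 21 members and in 9.0% of all genes with a window. The last 120 bases before a window's start site are printed 5′ to 3′ along the gene's strand, with kappaB matches in capitals; overlapping matches run together. The stretches are chr5:90891125-90891244 on the plus strand (Cxcl1), chr19:46304617-46304736 on the plus strand (Nfkb2, the first of 3 windows, which lies within the gene record that begins at 46300994), chr12:55492648-55492767 on the minus strand (Nfkbia), chr11:23770970-23771089 on the minus strand (Rel) and chr1:128592300-128592419 on the minus strand (Cxcr4).
Cxcl1: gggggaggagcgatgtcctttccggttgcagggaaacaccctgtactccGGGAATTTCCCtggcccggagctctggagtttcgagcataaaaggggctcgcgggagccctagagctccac
Nfkb2: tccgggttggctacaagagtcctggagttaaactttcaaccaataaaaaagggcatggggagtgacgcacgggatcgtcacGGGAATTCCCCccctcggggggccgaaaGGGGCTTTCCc
Nfkbia: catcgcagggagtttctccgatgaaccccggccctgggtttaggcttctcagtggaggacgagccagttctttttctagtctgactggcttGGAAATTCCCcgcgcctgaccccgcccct
Rel: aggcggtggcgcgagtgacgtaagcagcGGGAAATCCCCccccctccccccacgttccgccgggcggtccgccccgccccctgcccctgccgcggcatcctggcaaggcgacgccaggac
Cxcr4: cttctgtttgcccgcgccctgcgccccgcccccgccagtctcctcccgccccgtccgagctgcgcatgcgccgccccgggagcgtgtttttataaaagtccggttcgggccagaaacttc

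Genes around the NF-kappaB pathway were counted in lists that hold no member. A list of 32 NF-kappaB signalling genes held activators and inhibitors together. Of these, 8 rose, 15 fell and 9 did not pass (71.9% called, against 71.3% of all tested genes, median log2 fold change −0.06). The 4 with the smallest adjusted p included 3 Toll-like receptors, which sense microbial products. Tlr4, the receptor for bacterial lipopolysaccharide, rose to 68.8 ± 5.05 CPM in siRNA cells, against 41.8 ± 1.89 CPM in control cells (adjusted p = 5.98e-16), while Tlr3 (log2 fold change −0.49, adjusted p = 1.45e-17) and Tlr2 (−1.11, adjusted p = 9.91e-16) fell. Card10, a scaffold that links receptors to the IkappaB kinase, fell by 0.43 (adjusted p = 2.13e-15).

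Of 22 other genes known as NF-kappaB targets 20 were tested, and 7 rose, 10 fell and 3 did not pass (85.0% called, against 71.3% of all tested genes, median −0.09). The 4 with the smallest adjusted p all rose, although more of the list fell. Plau, the urokinase gene, stood at 2409 ± 78.5 CPM in siRNA and 1047 ± 30.0 CPM in control cells (SD, n = 5 each; log2 fold change 1.20, adjusted p = 6.80e-35). Sele, the endothelial adhesion molecule E-selectin, stood at 38.4 ± 3.11 CPM in siRNA and 14.0 ± 1.28 CPM in control cells (log2 fold change 1.45, adjusted p = 4.20e-21). Gch1, an enzyme of tetrahydrobiopterin synthesis, rose by 0.68 and the leukocyte adhesion gene Icam1 by 0.34. Among those that fell, and named after their values were seen, were C3, the central complement component, at 21.1 ± 1.29 CPM in siRNA and 49.0 ± 5.13 CPM in control cells (log2 fold change −1.22, adjusted p = 1.69e-10), and Nos2, the inducible nitric oxide synthase, with 26 counts over the siRNA and 96 over the control libraries (−1.88, adjusted p = 1.30e-07). Of 17 JAK-STAT and SOCS genes 6 rose, 7 fell and 4 did not pass (76.5% called, against 71.3% of all tested genes, median 0.02). Jak3 fell by 0.85, Jak2 by 0.30 and Cish, a feedback inhibitor of cytokine receptors, by 1.06, and the kinase gene Pim3 rose by 0.37.

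Per length of annotated exon, Ccl2 had the highest level of the tested members in siRNA cells, at 185 CPM per kilobase, followed by Nfkbia at 73.5, Rela at 31.6, Cxcr4 at 17.5 and Nfkb1 at 16.1. In control cells Nfkbia stood first at 80.7 CPM per kilobase, followed by Ccl2 at 77.6, Rela at 30.7, Ackr2 at 18.4 and Nfkb1 at 16.5. Cxcr4 was at 5.00 CPM per kilobase in control cells, under Csf1 (10.4), Nfkb2 (9.49) and Nfkbib (6.80), all of which it passed in siRNA cells. Ackr2 was at 10.3 CPM per kilobase in siRNA cells, under Csf1 (11.8) and Cx3cl1 (11.8).

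**Figure D4:**
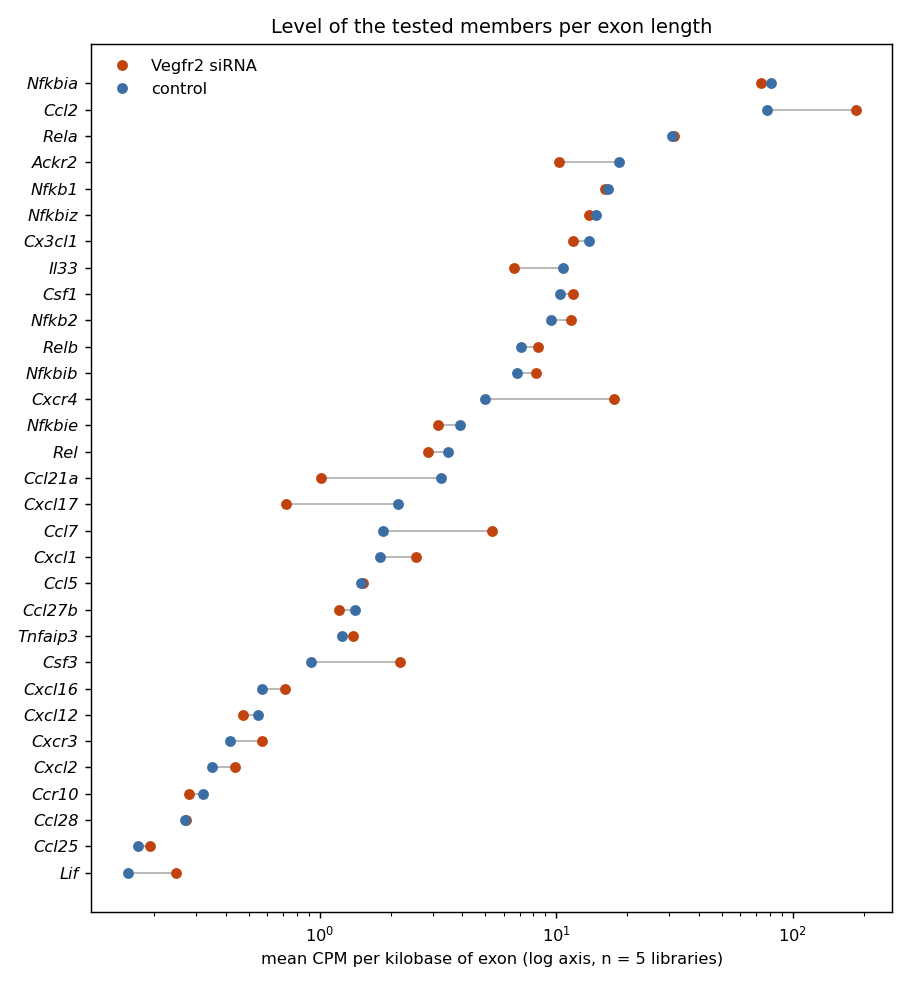
Mean level of the 31 tested members per kilobase of annotated exon, on a log axis, ordered by the control level, with Vegfr2 siRNA in red and control in blue (n = 5 libraries each). Ccl2, Cxcr4, Ccl7 and Csf3 lie to the right and Ccl21a, Cxcl17 and Ackr2 to the left of their control points.

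The other 27 members had too few counts to be tested, with at most 9.94 estimated counts in any library, and 21 of them had at most 3 counts in every library. They include most of the leukocyte chemokine receptors, Ccr2, Ccr4, Ccr7, Ccr9, Cxcr1, Cxcr2, Cxcr5 and Cxcr6, and the chemokines Ccl3, Ccl4, Ccl11, Ccl17, Ccl19, Ccl20, Cxcl3, Cxcl5, Cxcl9 and Cxcl14. When all genes were fitted with no filter, 2 of the 27 were called, both lower. They were Ccl21c and Ccl6, a chemokine of mouse myeloid cells with 4 counts over the siRNA and 28 over the control libraries (log2 fold change −2.64, edgeR adjusted p = 7.90e-05). Csf2 had 5 counts over the siRNA and 3 over the control libraries, and Il1a had 8 and 3.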

How the data were processed

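RNA was sequenced from 10 samples, 5 Vegfr2 siRNA and 5 control, grouped by their labels, with table columns matched to samples by name. The authors deposited estimated counts per gene and library, not normalized, with 10.5% to 11.3% of a library's genes fractional. HISAT2 2.2.1, Bowtie2 2.4.5, RSEM 1.3.1 and build GRCm38.p6 are named, without roles, in the submitters' processing notes, and strand setting and annotation were not given in the sources used here.

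Expected counts were rounded and fitted over the whole table with edgeR 4.0.16 in R 4.3.3 (TMM, filterByExpr with a minimum count of 10, robust quasi-likelihood F test, group as the only term, Benjamini-Hochberg adjustment, threshold 0.05), leaving 12161 of 16251 genes. Log2 fold changes are siRNA over control, and 95% intervals are the estimate ± 1.96 SE. The fit was tested on data simulated from the model it fits, with few genes changed. That setting differs from these libraries, where 71.3% of tested genes were called. Totals per library set the precision of low genes. GENCODE M21 (GRCm38) gave merged exon lengths (57 of 58 members matched), exon overlaps (named above 10%) and 3' UTRs of at least 50 bases. Gene coordinates and promoters are RefSeq's. Replicates were no duplicates of each other: the chi-square of pairs, divided by its degrees of freedom, was 1.50 to 3.47.

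The members, lists and tests were chosen with earlier results of these data known. Values in every library are given for called members of at least 2-fold, for Cxcr4, Ccl7 and Ccl21a, and for the most abundant member of each role, and each related list names the 4 genes with the smallest adjusted p. Alternatives tried were DESeq2 1.42.0, limma-voom (limma 3.58.1), RLE or upper-quartile scaling, dropping the filter or raising it to 5 CPM on average, blocking on replicate number, omitting each library in turn and, added after seeing the data, summing the Ccl21 copies.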

Additional observations from a re-analysis of the deposited data

Results flagged for a closer look

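In 3 of the 64 groups of 5 libraries looked at (31 tested members and Kdr, siRNA and control), a single library stood apart from the rest by Dixon's ratio (above 0.71); chance alone flags about 1 in 20 groups. Cxcl2 in siRNA replicate 2 was at 1.15 CPM, where the other siRNA libraries held 0.821 to 0.878 CPM. Ackr2 in control replicate 5 was at 61.2 CPM, where the other control libraries held 56.0 to 57.4 CPM, and the fall of Ackr2 was also called without that library. Lif in control replicate 3 was at 0.5 CPM, from 9 counts, where the other control libraries held 0.667 to 0.729 CPM.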

How the results depend on the processing

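Of the 19 called members 18 kept their call and direction under every alternative in which they were tested, and Nfkbiz did not (adjusted p = 0.0650 with DESeq2, otherwise as given above). Ccl7, Ccl21a, Cxcl1, Cxcl17, Lif and Csf3 were not tested at a mean of at least 5 CPM. With a mean of at least 5 CPM, which leaves 16 members in the test, 6 rose, and 2 of the cytokine receptors fell; with no filter 58 members were tested. Leaving out a library gave 10 to 11 members higher and 8 to 9 lower. With the replicate number as a block, 10 rose and 9 fell, as without it, and the same-numbered libraries did not deviate together (correlations from −0.0745 to 0.0198). The sign changed only for members that did not pass: Ccl27b with limma-voom (0.524) and Ccl28 with upper-quartile factors (−0.000639) and limma-voom (−0.00213). With single libraries left out, fold changes on the log2 scale ran from −0.535 to 0.255 for Ccl27b, from −0.0765 to 0.0887 for Ccl28 and from −0.0511 to 0.126 for Ccl5. Depth limits the low genes: members with means under 2 CPM in both groups had at most 40 counts in any library.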
